A study of Mus musculus with 8 samples.

Results

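DNA replication and mitosis genes were followed in long-term hematopoietic stem cells (LT-HSCs) of asrij knockout (KO) and asrij floxed mice. The group holds 38 genes, 14 that act in DNA replication during S phase and 24 that act in G2 and mitosis. They were chosen by name from textbook cell cycle genes, out of 54835 genes with a transcript in the deposited counts. Earlier results of these data were known when they were chosen. All 38 passed the filter on low counts, which left 21919 genes for testing.

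A cell copies its DNA once per division. Licensing factors load the MCM helicase on replication origins, the helicase unwinds the DNA, and polymerases held by a sliding clamp copy it with nucleotides supplied by ribonucleotide reductase and thymidylate synthase. Many of these genes are transcribed as cells enter S phase under E2F factors. Mitosis genes are transcribed later, under a complex that reads the CHR element together with CCAAT boxes, and their products build the spindle, attach chromosomes to it and trigger the destruction of cyclin B and securin. LT-HSCs are known to be mostly quiescent, so that both groups of transcripts are low in resting stem cells and high in dividing progenitors.

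Asrij, encoded by Ociad1, is an OCIA domain protein of mitochondria and endosomes. The floxed group, the control, held 4 mice homozygous for the asrij floxed allele (replicates 1, 3, 4 and 5), and the KO group held 4 mice with a whole-body asrij deletion (replicates 2, 3, 4 and 5). All mice were 6 months old, untreated, and each gave 1 library from sorted bone marrow LT-HSCs (LSK CD150+ CD48+). The study gives this gate for the sequenced cells and a CD48- gate for LT-HSCs in its other experiments. LT-HSCs are usually sorted as CD48- cells, and the background above is for those. The deletion is present in every cell of the KO mice and not in LT-HSCs alone, mice of both sexes were used, and how the deletion was bred and the sex of each mouse were not given in the sources used here.

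Libraries held between 23416457 and 44883131 counts over genes. Levels are given as counts scaled to a common library size with TMM factors (CPM), listed in the order of floxed replicates 1, 3, 4 and 5 and KO replicates 2, 3, 4 and 5, and fold changes as log2 of KO over floxed with their standard error (SE) from edgeR's quasi-likelihood test, adjusted for all genes tested by the Benjamini-Hochberg method. An adjusted p under 0.05 was taken as a call. Ociad1 itself, on chromosome 5 from 73292784 to 73314069 (GRCm38), had 41.5, 66.9, 36.7 and 31.3 CPM in the floxed libraries, against 15.2, 19.7, 12.5 and 11.7 CPM in the KO libraries. The groups did not overlap, and Ociad1 fell in KO (log2 fold change of -1.58, SE 0.27, adjusted p = 0.0249). Its adjusted p ranged from 0.00404 to 0.0922 when 1 library was left out, and was over 0.05 without floxed replicate 1 or KO replicate 2, 4 or 5.

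Floxed replicate 3 stood apart from the other floxed libraries. It held the highest floxed value in 34 of the 38 genes, against 37.7% of all tested genes, and the highest value of all 8 libraries in 18 of the 38, against 23.3%. Counts of called members are therefore given with and without it. Of the markers of the sorted cell, Kit was at 55.9 CPM in floxed and 50.9 CPM in KO libraries on average, Ly6a, which encodes Sca-1, at 11.4 and 9.63 CPM, and Slamf1, which encodes CD150, at 1.33 and 2.80 CPM. Of the stem cell genes on the same list, Hlf was at 9.18 and 6.76 CPM and Procr at 0.344 and 0.544 CPM. None of these 5 passed the test. The neutrophil genes S100a9 and Ngp were at 7081 CPM or more in the mean of each group. The erythroid markers other than haemoglobins, 11 genes, summed to between 2348 and 2475 CPM in floxed replicates 1, 4 and 5. Their sum was 7064 CPM in floxed replicate 3 and between 6970 and 7298 CPM in KO. Single genes differed from this sum. In floxed replicate 3, Gata1, Klf1 and Epor (79.1, 124.6 and 72.3 CPM) were below every KO library. The lowest KO values of these genes were 105.9, 177.2 and 76.6 CPM. Slc4a1, at 2545.8 CPM in floxed replicate 3, was above every KO library (2025.5 to 2243.8 CPM). In bulk libraries, more cells of a cycling type and more RNA per cell cannot be told apart.

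The promoters of the members show the division into replication and mitosis genes in their letters. RefSeq gave a window from 250 bases before to 50 bases after the start for 32 of the 38 genes (34 windows, GRCm38.p6), and none for Ccna2, Aurkb, Tpx2, Kif20a, Mcm4 and Gins2. On either strand, the CHR letters TTTGAA lay in 15 of 20 windows of mitosis genes (75.0%), in 1 of 14 windows of replication genes (7.14%, Mcm2) and in 17.9% of all 32851 windows. An E2F site, searched as TTTCCCGC, TTTCGCGC, TTTGCCGC or TTTGGCGC, lay in 6 of 14 replication windows (42.9%), in 1 of 20 mitosis windows (5.0%, Cdk1) and in 2.26% of all windows. The CCAAT box, searched as CCAAT, lay in 85.7% of replication, 85.0% of mitosis and 37.4% of all windows. The TATA box, searched as TATAAA, lay in none of the 34 and in 13.6% of all windows.

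The stretches below were chosen to show both kinds, with Mcm5 and Mcm6 for replication and Cdk1, Ccnb2, Mki67, Ube2c and Birc5 for mitosis. They run 5′ to 3′ on the strand of the gene within the 200 bases before the RefSeq start, without bases that GENCODE places in an exon. Capitals mark E2F, CHR and CCAAT letters on either strand, and neighbouring matches run together where they overlap.
Mcm5 (chr8:75109309-75109508, plus strand): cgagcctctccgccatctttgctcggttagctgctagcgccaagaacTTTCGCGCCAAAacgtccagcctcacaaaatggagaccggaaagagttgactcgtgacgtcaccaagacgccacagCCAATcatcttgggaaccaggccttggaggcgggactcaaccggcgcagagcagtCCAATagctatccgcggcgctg
Mcm6 (chr1:128359706-128359905, minus strand): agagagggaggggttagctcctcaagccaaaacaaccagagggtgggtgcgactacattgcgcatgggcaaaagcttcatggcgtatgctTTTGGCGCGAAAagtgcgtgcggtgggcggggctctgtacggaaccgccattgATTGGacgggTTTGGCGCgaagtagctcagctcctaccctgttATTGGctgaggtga
Cdk1 (chr10:69352939-69353112, minus strand): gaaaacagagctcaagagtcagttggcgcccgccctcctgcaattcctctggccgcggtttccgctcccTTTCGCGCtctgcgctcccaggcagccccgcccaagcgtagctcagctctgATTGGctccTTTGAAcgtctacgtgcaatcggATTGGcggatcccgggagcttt
Ccnb2 (chr9:70421555-70421754, minus strand): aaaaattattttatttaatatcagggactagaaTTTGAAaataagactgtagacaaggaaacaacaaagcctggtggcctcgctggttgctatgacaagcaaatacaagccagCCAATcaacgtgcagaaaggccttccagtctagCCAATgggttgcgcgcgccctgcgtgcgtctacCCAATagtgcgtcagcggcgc
Mki67 (chr7:135716380-135716579, minus strand): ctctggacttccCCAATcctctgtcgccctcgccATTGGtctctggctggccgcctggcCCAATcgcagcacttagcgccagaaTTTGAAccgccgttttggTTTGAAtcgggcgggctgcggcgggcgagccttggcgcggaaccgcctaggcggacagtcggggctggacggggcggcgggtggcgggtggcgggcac
Ube2c (chr2:164769729-164769897, plus strand): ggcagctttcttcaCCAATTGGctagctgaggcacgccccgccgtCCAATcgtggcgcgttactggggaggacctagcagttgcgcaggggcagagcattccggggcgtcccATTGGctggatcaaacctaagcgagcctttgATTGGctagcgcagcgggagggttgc
Birc5 (chr11:117849037-117849236, plus strand): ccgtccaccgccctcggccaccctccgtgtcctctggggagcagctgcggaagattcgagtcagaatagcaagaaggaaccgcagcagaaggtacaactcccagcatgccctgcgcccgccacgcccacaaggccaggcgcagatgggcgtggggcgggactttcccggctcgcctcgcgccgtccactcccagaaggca
In Mcm5 and Mcm6, overlapping E2F letters on both strands form a single run of capitals upstream of 2 CCAAT boxes, and Mcm6 holds a further E2F site nearer to its start. Cdk1 holds an E2F site, a CHR and 2 CCAAT boxes, which makes it the one mitosis window with both kinds. Mki67 holds the CHR letters at both 116 and 98 bases before its start. The stretch shown for Ube2c ends 32 bases before its start, and its CHR begins 29 bases before the start. Birc5 holds none of these letters in the bases shown, and none of the 4 motifs in its whole window. A match describes letters only. The median log2 fold change was 0.09 over the 15 mitosis genes with a CHR and 0.11 over the 5 without, and 0.40 over the 6 replication genes with an E2F site and 0.56 over the 6 without.

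Every one of the 14 replication genes had a higher mean in KO, but none passed the test over the 8 libraries. Their log2 fold changes lay between 0.26 and 0.70, with a median of 0.49. Over all tested genes the median was -0.0057, and 49.6% had a positive value. By edgeR, 0 of 14 were called, where 1.22% of all genes were called higher and 1.75% lower, 2.97% in all. At an unadjusted p under 0.05, 6 of 14 were higher, against 9.64% of all genes. DESeq2 called 2 of 14 higher (Mcm3 and Gins2), and 11.2% of all genes (5.12% higher, 6.05% lower). limma-voom called 0 of 14, and 2.2% of all genes (1.2% higher). No member met the study's own rule, an absolute log2 fold change above 1.5 besides the adjusted p, which 1.19% of all genes met. Without floxed replicate 3, 11 of 14 were called higher and 0 lower, against 8.91% and 8.65% of all genes, and the median was 0.81. The exceptions were Mcm4, Tyms and Uhrf1, with log2 fold changes of 0.82, 0.81 and 0.44 in that fit.

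Mcm2 to Mcm7 encode the subunits of the hexameric helicase. Mcm7 had the largest log2 fold change of the replication genes. It lies on chromosome 5 from 138164583 to 138172422 and had 49.3, 71.9, 41.3 and 34.2 CPM in the floxed libraries, against 95.4, 90.0, 68.8 and 65.3 CPM in the KO libraries. Only floxed replicate 3 reached into the KO range. The log2 fold change was 0.70 (SE 0.24, adjusted p = 0.134), and 0.95 without floxed replicate 3 (SE 0.19, adjusted p = 0.0111). The span of Mcm7 is shared with Ap4m1, Cops6 and the miRNA genes Mir25, Mir93 and Mir106b, whose reads cannot be told apart from its own. The other 5 subunits had log2 fold changes of 0.50 (Mcm2), 0.46 (Mcm3), 0.46 (Mcm4), 0.35 (Mcm5) and 0.26 (Mcm6), with adjusted p-values from 0.129 to 0.535. Without floxed replicate 3 they came to 0.81, 0.60, 0.82, 0.49 and 0.51, and all but Mcm4 were called.

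Cdc6 loads the helicase on origins together with the origin recognition complex. It lies on chromosome 11 from 98907801 to 98923940 and had 27.9, 72.8, 22.7 and 21.0 CPM in the floxed libraries, against 65.0, 65.6, 54.4 and 49.3 CPM in the KO libraries. Floxed replicate 3 was the highest of all 8 libraries, while the other floxed libraries were below every KO library. No other replication gene moved as far with that library. The log2 fold change was 0.69 with it (SE 0.38, adjusted p = 0.320) and 1.31 without it (SE 0.16, adjusted p = 0.00143).

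Gins2, a subunit of the GINS complex that travels with the helicase, gave 55.9, 82.4, 77.4 and 83.9 CPM in the floxed libraries, against 109.6, 95.7, 133.8 and 134.4 CPM in the KO libraries. It was the replication gene nearest to a call (log2 fold change of 0.66, SE 0.18, adjusted p = 0.0784, and 0.72 with adjusted p = 0.0332 without floxed replicate 3), its groups did not overlap, and floxed replicate 3 was not its highest floxed value. Its gene, on chromosome 8 from 120578633 to 120589304, lies in the span of Gse1 and Gm20388, 1 of which had 1047988 counts over the 8 libraries against 25932 for Gins2, so that reads of these genes may be included.

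Slbp binds the stem-loop of replication-dependent histone mRNAs. On chromosome 5 from 33634952 to 33652574, it had 67.0, 104.2, 72.3 and 48.4 CPM in the floxed libraries, against 117.5, 137.5, 108.0 and 94.5 CPM in the KO libraries. The KO library lowest in Slbp, replicate 5, was below floxed replicate 3 and above the other floxed libraries. The log2 fold change was 0.65 (SE 0.23, adjusted p = 0.147), and 0.88 without floxed replicate 3 (adjusted p = 0.0139).

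Among the genes of nucleotide supply, Rrm2, the regulated subunit of ribonucleotide reductase, had the highest CPM of the replication genes. On chromosome 12 from 24708241 to 24714146, it had 149.6, 282.1, 148.1 and 123.5 CPM in the floxed libraries, against 312.2, 322.4, 228.7 and 226.1 CPM in the KO libraries. Floxed replicate 3 lay within the KO range, and the other floxed libraries below it. The log2 fold change was 0.63 (SE 0.28, adjusted p = 0.220) and 0.97 without that library (adjusted p = 0.00784). Rrm1, the large subunit, had 0.40 (adjusted p = 0.395), and 0.68 without that library (adjusted p = 0.0254). Tyms, thymidylate synthase, had 0.48 (adjusted p = 0.422). Pcna, the sliding clamp, had a log2 fold change of 0.63 (adjusted p = 0.178), and 0.92 without floxed replicate 3 (adjusted p = 0.00902). Uhrf1, which brings the maintenance DNA methyltransferase to new DNA, had 0.29 (adjusted p = 0.396). Per kilobase of spliced transcript, the replication genes lay between 5.72 (Tyms) and 102.0 (Rrm2) CPM, with a median of 43.1. The counts were taken to cover introns as well, which this length leaves out.

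**Figure D1:**
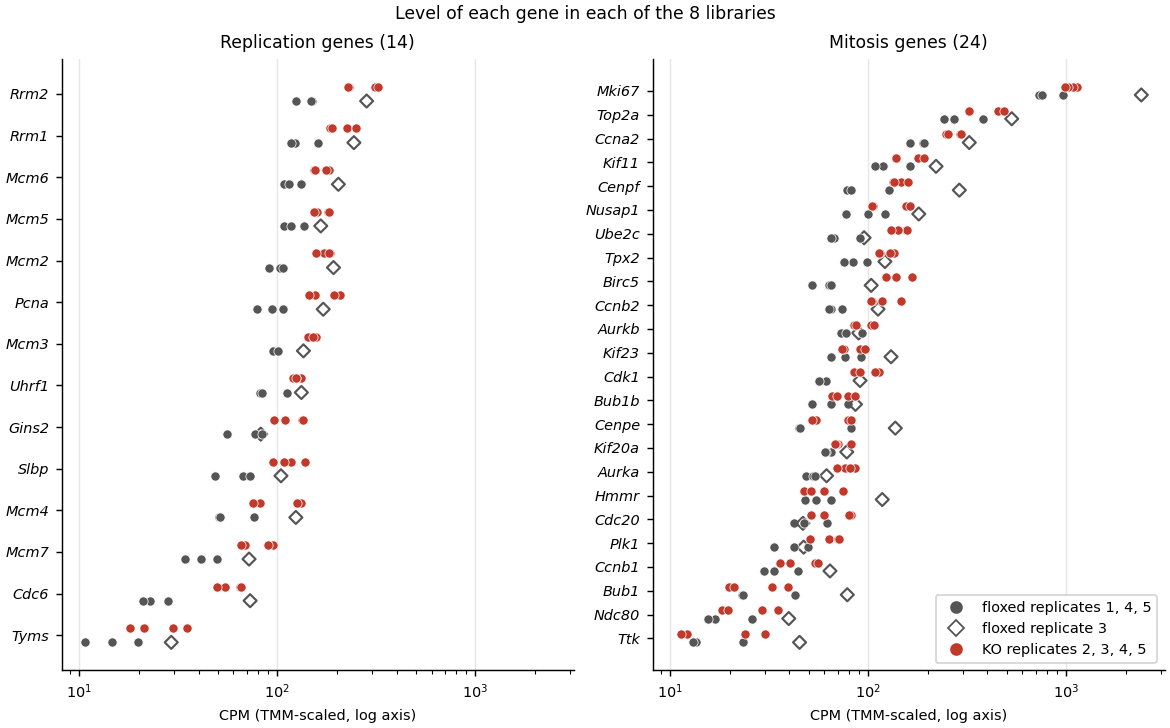
CPM (log axis) of the 14 replication genes (left) and 24 mitosis genes (right) in each library, floxed in grey and KO in red, with floxed replicate 3 as an open diamond. For the replication genes other than Gins2 the diamond sits beside the red KO points with the other grey points to its left, while for Mki67, at 2393 CPM, it lies to the right of every other library.

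The mitosis genes were more divided. Over the 8 libraries 17 of 24 had a higher mean in KO and 7 a lower one, with log2 fold changes from -0.57 (Bub1) to 0.99 (Birc5) and a median of 0.13. Scaled by total gene count alone, which moved the median of all genes to -0.2, 9 of 24 were positive and 17 were above that median, while all 14 replication genes stayed positive. Birc5 and Ube2c were called higher, 2 of 24 against 1.22% of all genes, and none was called lower. At an unadjusted p under 0.05, 7 of 24 were higher, against 9.64% of all genes, and none lower. DESeq2 called 5 of 24 higher (Cdk1, Aurka, Birc5, Plk1 and Ube2c), against 5.12%, and limma-voom 2, against 1.2%. Without floxed replicate 3, 8 of 24 were called higher, against 8.91%, and none lower, 23 of 24 had a positive value, and the median was 0.41. The fits that left out 1 of the other 7 libraries called none of the 38 genes, and between 0.259% and 1.17% of all genes. With the replicate number as a block, which uses numbers 3, 4 and 5 only, none was called, where 0.222% of all genes were (0.13% higher, 0.0925% lower).

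Birc5 encodes survivin, a subunit of the chromosomal passenger complex that corrects wrong attachments of chromosomes to the spindle. On chromosome 11 from 117849251 to 117855743, it had 63.6, 103.5, 65.1 and 52.1 CPM in the floxed libraries, against 166.1, 138.7, 138.1 and 122.3 CPM in the KO libraries. Every KO library was above every floxed library, which held for 6 of the 38 genes (Mcm3, Gins2, Aurka, Birc5, Plk1 and Ube2c) and for 7.1% of all genes. The reverse held for none of the 38 and for 7.67% of all genes. Birc5 rose 1.99-fold (log2 fold change of 0.99, SE 0.22, adjusted p = 0.0475). The block for replicate numbers gave 0.93 with adjusted p = 0.141, and the fits without 1 library gave adjusted p-values from 0.00127 to 0.135, with the lowest, the only one under 0.05, without floxed replicate 3 (log2 fold change of 1.24). Aurkb, the kinase of the same complex, had 0.20 (adjusted p = 0.485), and 0.25 without that library (adjusted p = 0.270).

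Ube2c is the ubiquitin-conjugating enzyme of the anaphase-promoting complex (APC/C), the ligase that marks cyclin B and securin for destruction. On chromosome 2 from 164769898 to 164778822, it had 66.9, 95.3, 91.0 and 65.0 CPM in the floxed libraries, against 155.6, 157.7, 142.0 and 130.1 CPM in the KO libraries. The lowest KO library was well above the highest floxed library. Ube2c rose 1.84-fold (log2 fold change of 0.88, SE 0.18, adjusted p = 0.034). The block for replicate numbers gave 0.81 with adjusted p = 0.138, and the fits without 1 library adjusted p-values from 0.00461 to 0.106, again under 0.05 only without floxed replicate 3. Cdc20, an activator of the same ligase, had a log2 fold change of 0.46 (adjusted p = 0.212), and 0.44 without floxed replicate 3 (adjusted p = 0.192), and was the only gene of the 38 that was higher in replicates 4 and 5 than in 1 to 3 in both genotypes. Its span overlaps that of Elovl1, which had more counts.

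Cdk1 is the kinase that drives entry into mitosis. On chromosome 10 from 69335146 to 69352938, it had 56.5, 90.9, 61.1 and 56.6 CPM in the floxed libraries, against 113.3, 108.4, 84.9 and 91.1 CPM in the KO libraries. Floxed replicate 3 lay between the KO replicates 4 and 5, and the other floxed libraries lay close together below them. The log2 fold change was 0.59 (SE 0.19, adjusted p = 0.121), and 0.79 without floxed replicate 3 (SE 0.14, adjusted p = 0.0063).

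Ccnb2, one of the B-type cyclins that bind Cdk1, had 73.9, 112.1, 65.2 and 63.1 CPM in the floxed libraries, against 145.7, 117.2, 104.7 and 102.8 CPM in the KO libraries. Its groups overlapped through floxed replicate 3 alone. It lies on chromosome 9 from 70407692 to 70421547, and its log2 fold change was 0.58 (SE 0.22, adjusted p = 0.159), and 0.82 without that library (adjusted p = 0.00872). Ccnb1, the other B-type cyclin measured, had 0.11 (adjusted p = 0.842), and 0.39 without floxed replicate 3 (adjusted p = 0.247). Ccna2, the cyclin A of S and G2 phase, had 0.32 (adjusted p = 0.456), and 0.59 without it (adjusted p = 0.0159), and shares part of its span with Exosc9.

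The kinases of the spindle poles were close to Cdk1 in value. Aurka, which matures centrosomes, had a log2 fold change of 0.53 (SE 0.14, adjusted p = 0.067), and Plk1, which acts on centrosomes, kinetochores and cytokinesis, had 0.57 (SE 0.18, adjusted p = 0.103). Tpx2, which activates Aurka on spindle microtubules, had 0.38 (adjusted p = 0.249). All 3 were called without floxed replicate 3, at 0.61, 0.63 and 0.53.

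Mki67, which coats mitotic chromosomes and encodes the proliferation marker Ki-67, had the highest CPM of all 38 genes. On chromosome 7 from 135689784 to 135716361, it had 961.3, 2393, 726.6 and 756.4 CPM in the floxed libraries, against 1127, 1081, 1015 and 990.9 CPM in the KO libraries. The KO libraries lay close together, above 3 of the floxed libraries and far below floxed replicate 3. The log2 fold change was -0.20 with that library (SE 0.38, adjusted p = 0.806) and 0.38 without it (SE 0.14, adjusted p = 0.10), so that the sign rests on 1 library and neither value was called.

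Bub1, Bub1b, Ttk, Ndc80, Cenpe and Cenpf, of the spindle checkpoint and the kinetochore, had values from -0.57 to 0.09. Bub1, a checkpoint kinase, had 42.6, 78.4, 23.0 and 23.4 CPM in the floxed libraries, against 32.8, 39.5, 19.9 and 21.0 CPM in the KO libraries. It was the only gene of the 38 with a negative value also without floxed replicate 3, by log2 fold changes of -0.57 (SE 0.41, adjusted p = 0.459) and -0.05 (SE 0.31, adjusted p = 0.928). Its relative Bub1b had 0.09 and 0.21, the checkpoint kinase Ttk -0.29 and 0.23, and Ndc80, which ties kinetochores to microtubules, 0.06 and 0.41. The kinetochore motor Cenpe had -0.21 and 0.23, and Cenpf, which binds kinetochores in G2 and mitosis, -0.00 and 0.60. None of these 6 was called in either fit.

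The spindle genes Kif11, Kif20a, Kif23, Nusap1 and Hmmr, and Top2a, had values from -0.29 to 0.16. Kif11, the motor that pushes the spindle poles apart, had log2 fold changes of 0.08 with and 0.33 without floxed replicate 3. The motors of the midzone and cytokinesis, Kif20a and Kif23, had 0.12 and -0.11 with it and 0.22 and 0.12 without it, and Kif20a shares part of its span with Cdc23. The microtubule binders Nusap1 and Hmmr had 0.14 and -0.29 with it, and 0.42 and 0.07 without it. Top2a, which untangles DNA before chromosomes separate, had 0.16 and 0.43. None of these 6 was called in either fit. Per kilobase of spliced transcript, again without introns, the mitosis genes lay between 7.89 (Ttk) and 112.0 (Mki67 and Birc5) CPM, with a median of 25.4.

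**Figure D2:**
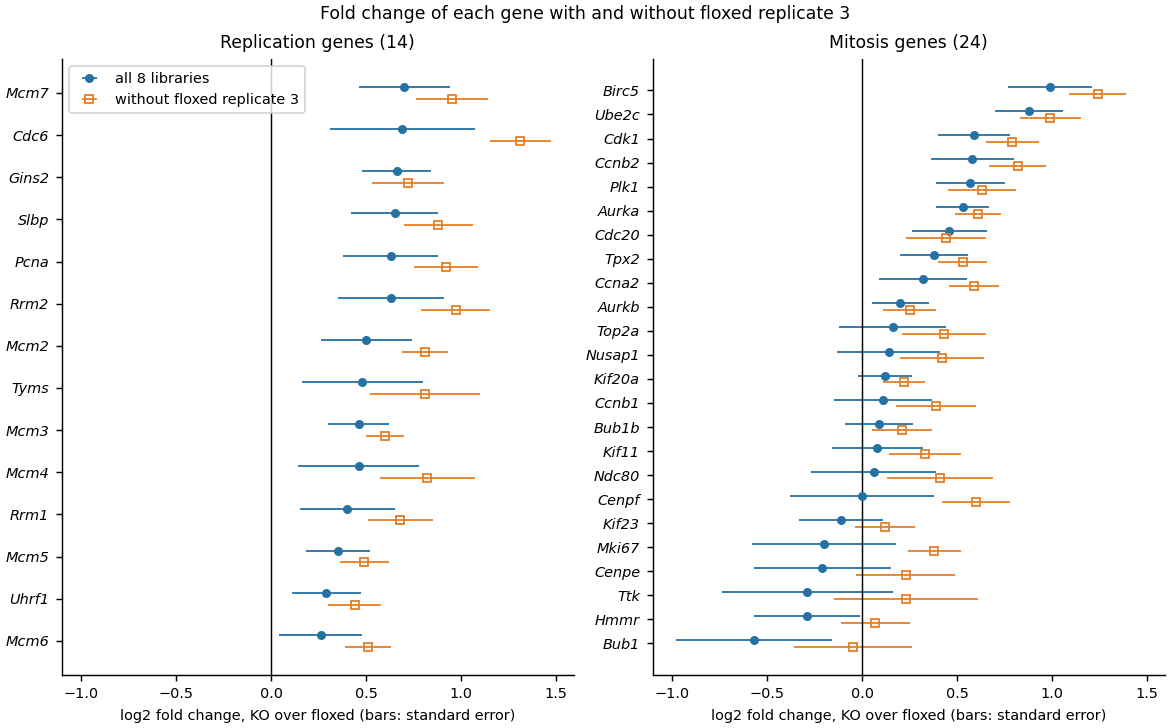
Log2 fold change of KO over floxed (bars, standard error) for the 14 replication and 24 mitosis genes, with all 8 libraries (circles) and without floxed replicate 3 (squares). All replication genes sit right of 0 in both fits, and without floxed replicate 3 every mitosis gene but Bub1 (-0.05) does too.

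Set side by side, the 2 classes stood further apart in KO than in floxed libraries. The mean log2(CPM + 1) over the 14 replication genes was 6.28, 6.98, 6.15 and 6.08 in the floxed and 7.06, 7.02, 6.82 and 6.80 in the KO libraries. Over the 24 mitosis genes it was 6.34, 6.93, 6.09 and 6.03 in floxed, and 6.73, 6.74, 6.44 and 6.44 in KO libraries. Floxed replicate 3 thus had a replication mean within the KO range and a mitosis mean above it. KO minus floxed was 0.55 for replication genes (0.76 without floxed replicate 3) and 0.24 for mitosis genes (0.43 without it), with SDs between libraries of 0.41 and 0.41 in floxed and 0.13 and 0.17 in KO mice (n = 4 each).

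The difference between the classes within each library, mitosis minus replication, is hardly touched by the scaling of the library. It was 0.06, -0.05, -0.07 and -0.05 in the floxed and -0.34, -0.28, -0.38 and -0.36 in the KO libraries. All KO libraries were below all floxed libraries, and floxed replicate 3 lay among the other floxed libraries. The group means were -0.03 ± 0.06 in floxed and -0.34 ± 0.04 in KO mice (SD, n = 4 each), a difference of -0.31. This difference was -0.31 within numbers 1 to 3, -0.31 within numbers 4 and 5 and -0.32 without floxed replicate 3. It is given as a description with no test, since the genes were chosen with earlier results of these data known. On the same scale, the mean of the 63 genes of the other mitosis lists below minus that of the 47 genes of the other replication lists was between 0.57 and 0.65 in floxed and between 0.45 and 0.46 in KO libraries, a difference of -0.15.

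**Figure D3:**
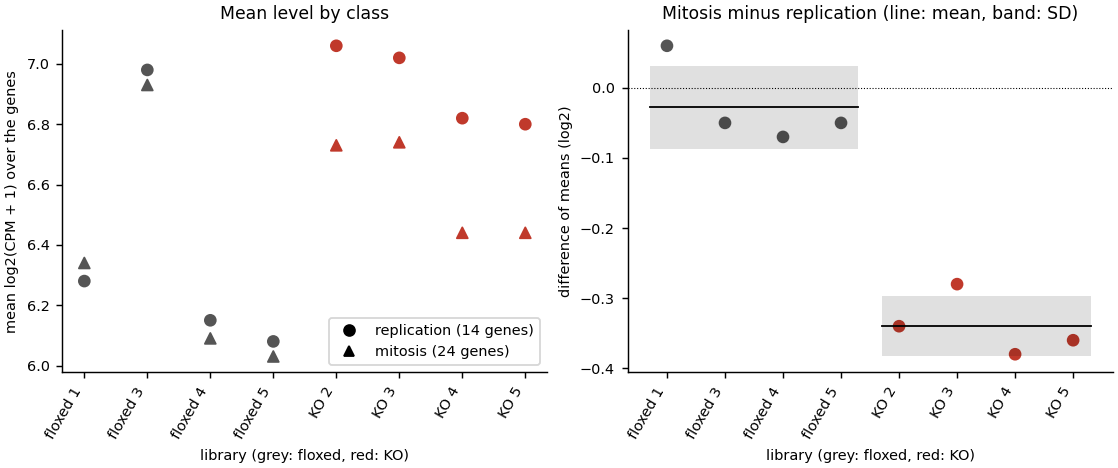
Mean log2(CPM + 1) over the 14 replication genes (circles) and the 24 mitosis genes (triangles) in each library (left), and mitosis minus replication in each library with group mean and SD (right). On the left floxed replicate 3 sits with or above the KO libraries, and on the right it sits at -0.05 with the floxed libraries, while the 4 KO libraries lie between -0.38 and -0.28.

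GC content moved with these values. The spliced transcripts of the replication genes had a median GC content of 50.1% (44.4 to 55.5%) and those of the mitosis genes 46.4% (41.0 to 56.0%). Across the 24 mitosis genes the log2 fold change correlated with GC content (Pearson's r = 0.74, Spearman's rho = 0.75). Across the 14 replication genes it hardly did (0.00 and 0.13), and across 21902 tested genes with a GC value weakly (0.24 and 0.28). It fell with the genomic span in replication genes (-0.69 and -0.67) and mitosis genes (-0.61 and -0.57), and less over all genes (-0.14 and -0.21). With spliced length it correlated at -0.58 and -0.55 in mitosis genes and -0.31 and -0.07 in replication genes. Over all genes these were -0.12 and -0.20. Without floxed replicate 3, the correlations with GC content were 0.51 and 0.53 in mitosis genes and -0.25 and -0.28 in replication genes. Over all genes they were 0.13 and 0.14. Those with span were -0.43 and -0.34 in mitosis genes, -0.50 and -0.69 in replication genes and -0.06 and -0.10 over all genes. Those with spliced length were -0.40 and -0.36 in mitosis genes and -0.12 and -0.17 in replication genes. The points share the same libraries and are genes, not replicates. With all 8 libraries, the 12 mitosis genes of higher GC content had a median log2 fold change of 0.50, with 11 positive. The 12 of lower GC content had 0.03, with 6 positive.

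Divided in this way, after the values had been seen, the difference between the classes was larger for the mitosis genes of lower GC content. Their mean minus that of the replication genes was between -0.30 and 0.12 in floxed and between -0.79 and -0.36 in KO libraries, while for the 12 of higher GC content it was between -0.21 and 0.21 in floxed and between -0.20 and 0.02 in KO libraries, which overlap. A correction for GC content and length in each library, also chosen after the data had been seen, gave medians of 0.61 for replication and 0.30 for mitosis genes, with 21 of 24 mitosis genes positive. It called Gins2 (0.62, adjusted p = 0.0475) and Cdk1 (0.72, adjusted p = 0.0376), where 4.31% of all genes were called (1.74% higher, 2.56% lower), and no longer Birc5 (0.81, adjusted p = 0.103) or Ube2c (0.68, adjusted p = 0.111). Mitosis minus replication then ranged from -0.19 to 0.02 in floxed and from -0.34 to -0.26 in KO libraries, a difference of -0.23 in place of -0.31. With the correction and without floxed replicate 3, 13 of 14 replication and 15 of 24 mitosis genes were called, all higher, against 25.7% of all genes (12.3% higher). Corrected, mitosis minus replication over the other lists became -0.08, with overlapping groups. Against GC content, the corrected log2 fold changes fell in replication genes (Pearson's r = -0.57, Spearman's rho = -0.62) and rose in mitosis genes (0.34 and 0.30).

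**Figure D4:**
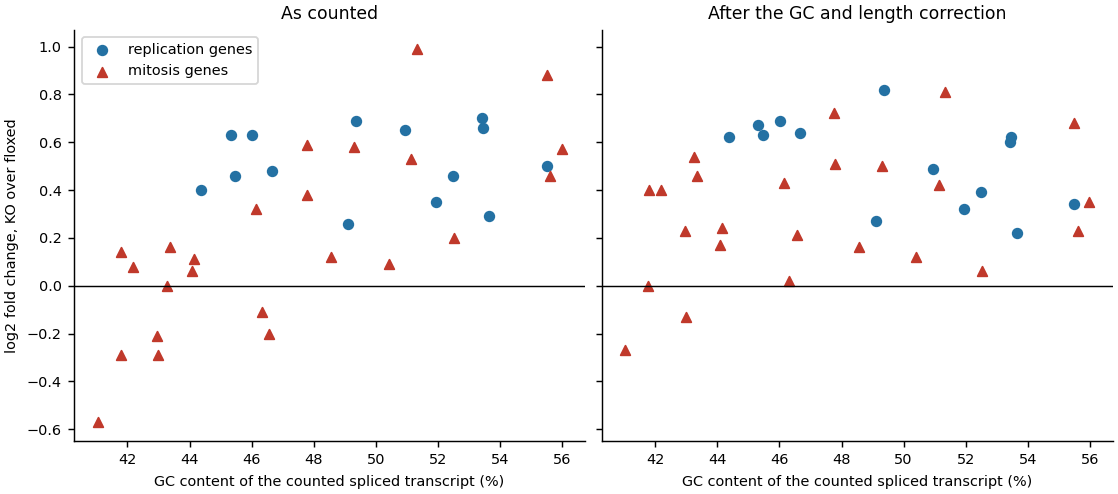
Log2 fold change of KO over floxed against the GC content of the spliced transcript for replication genes (circles) and mitosis genes (triangles), as counted (left) and after the correction for GC content and length (right). On the left the mitosis genes climb from Bub1, at -0.57 and lowest in GC content, to Birc5, at 0.99 and 51.3% GC. Aurkb, Ube2c, Cdc20 and Plk1, of higher GC content than Birc5, lie below it, between 0.20 and 0.88. On the right this slope is shallower, with a Spearman's rho of 0.30 in place of 0.75. The replication genes fall with GC content on the right, with a Spearman's rho of -0.62 in place of 0.13.

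Members also differed by library number and in their spread within groups. In 24 of 38 genes the libraries numbered 1 to 3 were above those numbered 4 and 5 in both genotypes, against 21.8% of all genes, and the reverse held for Cdc20 alone, against 19.9%. Within numbers 4 and 5, 13 of 14 replication and 13 of 24 mitosis genes were called higher, against 16.3% of all genes (32.8% in either direction), with medians of 0.68 and 0.32. Within numbers 1 to 3, where floxed replicate 3 is 1 of the 2 floxed libraries, none was called (0.00854% of all genes), with medians of 0.39 and 0.07. With all 8 libraries and a term for numbers 4 and 5 against the rest, 6 of 14 replication and 8 of 24 mitosis genes were called, all higher, against 18.6% of all genes (8.89% higher, 9.66% lower). Between libraries, the SD of log2(CPM + 1) was smaller in KO than in floxed mice in 36 of 38 genes, against 70.5% of all genes. The median SD over the 38 genes was 0.448 in floxed and 0.217 in KO mice, and 0.249 in floxed mice without replicate 3. Without that library the groups did not overlap, with KO higher, in 12 of 14 replication and 11 of 24 mitosis genes, against 15.2% of all genes.

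Of 128 other genes in 8 lists of replication, mitosis and their regulators, 2 were called, where 2.97% of all genes were. These were Pttg1 and Fzr1, both on the list of mitotic entry and APC/C genes. Pttg1 encodes securin, the inhibitor of separase that is destroyed at anaphase. It lies on chromosome 11 from 43420250 to 43426251 and had 8.83, 10.2, 8.84 and 7.39 CPM in the floxed libraries, against 44.3, 36.1, 31.1 and 30.3 CPM in the KO libraries. Every KO library was far above every floxed library, and floxed replicate 3 was near the other floxed libraries. Pttg1 rose with a log2 fold change of 2.01 (SE 0.18, adjusted p = 0.00149), larger than that of any of the 38 genes, and was called with any 1 of the 8 libraries left out, and also under the replicate block (1.91, adjusted p = 0.0159).

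Fzr1 encodes Cdh1, the activator of the APC/C in late mitosis and G1 phase. On chromosome 10 from 81366222 to 81378516, it had 72.7, 116.8, 94.9 and 112.3 CPM in the floxed libraries, against 173.5, 146.7, 229.7 and 230.7 CPM in the KO libraries. The groups did not overlap. Fzr1 rose with a log2 fold change of 0.98 (SE 0.22, adjusted p = 0.0456), and was not called with the replicate block (0.90, adjusted p = 0.159) or in 7 of the 8 fits without 1 library. The exception was the fit without floxed replicate 3. Its span overlaps that of Mfsd12.

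With all libraries the 3 lists of replication genes had medians of 0.31 to 0.33 and the 4 lists of mitosis genes 0.10 to 0.25. This order did not hold under the replicate block, where kinetochore genes had 0.31 and nucleotide supply 0.29, or with the GC and length correction, where condensin and cohesin had 0.33 and polymerases 0.25. Origin licensing and firing (17 genes) had a median log2 fold change of 0.33, with Cdt1, which loads the helicase with Cdc6, at 0.72 (adjusted p = 0.113) and Orc5 of the origin recognition complex at 0.66 (adjusted p = 0.234). Polymerases and fork factors (20 genes) had 0.31, with Rpa2, which covers single-stranded DNA, at 0.87 (adjusted p = 0.0526) and the flap nuclease Fen1 at 0.86 (adjusted p = 0.0593). Nucleotide supply (10 genes) had 0.31, with thymidine kinase Tk1 at 0.62 (adjusted p = 0.183) and Impdh2 of guanine nucleotide synthesis at 0.47 (adjusted p = 0.486). None of these 47 genes was called, and 37 were positive. Without floxed replicate 3, 22 of the 47 were called higher and none lower, against 8.91% and 8.65% of all genes.

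On the side of mitosis, the kinetochore and spindle checkpoint list (16 genes) had a median of 0.25, with the kinetochore scaffold Knl1 at -0.72 (adjusted p = 0.406) and the inner kinetochore gene Cenph at 0.71 (adjusted p = 0.278). Spindle motors and cytokinesis (16 genes) had 0.14, with the chromosome motor Kif22 at 0.62 (adjusted p = 0.0771) and the midzone motor Kif20b at -0.61 (adjusted p = 0.315). Condensin and cohesin (13 genes) had 0.10, with the cohesin subunit Stag2 at -0.56 (adjusted p = 0.271) and the condensin subunit Ncaph2 at 0.50 (adjusted p = 0.120). Mitotic entry and APC/C (18 genes) had 0.16. Over these 63 genes 41 were positive. Without floxed replicate 3, 21 of them were called higher and 1, Cep55 of the midbody, lower, against 8.91% and 8.65% of all genes. The transcription regulators (18 genes) had a median of 0.05, with the repressor E2f4 at 0.90 (adjusted p = 0.0688) and the activator E2f1 at 0.77 (adjusted p = 0.105), and without floxed replicate 3 their median was 0.24, with 5 called higher and none lower.

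**Figure D5:**
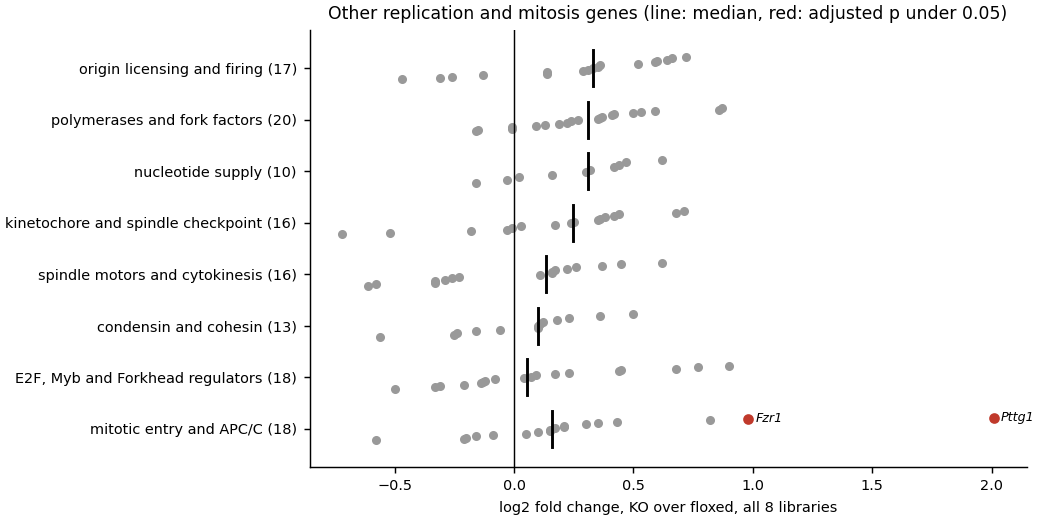
Log2 fold change of KO over floxed for 128 other genes in 8 lists, 1 point per gene, with the median of each list as a line and called genes in red. The medians of the upper 3 lists, those of replication, lie between 0.31 and 0.33, and Pttg1 (2.01) and Fzr1 (0.98) are the called genes.

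Markers of other cells also differed between the groups, some lists higher and others lower in KO. Of all tested genes, 1.22% were called higher and 1.75% lower with all libraries. These shares were 8.91% and 8.65% without floxed replicate 3, and 0.13% and 0.0925% under the replicate block. The summed CPM of the 15 erythroid markers ranged from 28467 to 72067 in floxed and from 124304 to 296848 in KO libraries and 4 of the 15 (Hba-a1, Hbb-bt, Klf1 and Gata1) were called higher and none lower. Without floxed replicate 3 all 15 were called higher, and under the replicate block none was. Of 9 megakaryocyte markers, 7 were called higher (8 without floxed replicate 3, 1 under the block), with sums of 71.4 to 138.8 CPM in floxed and 243.8 to 294.5 CPM in KO libraries. The 13 neutrophil and monocyte markers summed to 45434 to 51318 CPM in floxed replicates 1, 4 and 5, 16888 CPM in floxed replicate 3 and 24851 to 31337 CPM in KO. None of the 13 was called with all libraries or under the block, and 7 were called lower without floxed replicate 3 (Mpo, Ctsg, Ltf, Ngp, Ly6c2, Itgam and Csf3r). Of 11 B lineage markers, 2 were called higher (Cd79a and Vpreb1; 9 without floxed replicate 3, none under the block), with sums of 341.9 to 695.8 CPM in floxed, the highest in replicate 3, and 611.8 to 659.6 CPM in KO libraries. Of 6 plasma cell markers 2 were called lower (Prdm1 and Jchain), with sums of 204.0 to 352.4 CPM in floxed and 165.1 to 172.3 CPM in KO libraries, and of 10 T and NK markers 1 was (Ncr1), with sums of 102.0 to 135.9 and 79.8 to 90.0 CPM. The 12 LT-HSC markers summed to 94.6 to 99.8 CPM in floxed and 94.9 to 109.7 CPM in KO libraries, which overlap. Without floxed replicate 3 the plasma cell and the T and NK lists had 3 called lower each, and under the block none. No marker of these lists was at 0 in a library. Floxed replicate 3 lay on the KO side of the other floxed libraries in the sums of erythroid markers without haemoglobins, of neutrophil and monocyte, B lineage and plasma cell markers, and in the mean of the replication genes, but not in megakaryocyte markers (109.6 CPM, within the floxed range), T and NK markers or mitosis minus replication. The part of these cells in the results was not tested.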

How the data were processed

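RNA of sorted bone marrow LT-HSCs (100 ng of total RNA per library) was sequenced by the authors after NEBNext Ultra library preparation on an Illumina HiSeq, checked with FastQC, trimmed with Trim Galore and aligned with Bowtie 2 to GRCm38/mm10 transcripts. They deposited raw counts per transcript, 1 file per library, not normalized. The counting tool, its version, the annotation release and the strand setting were not given in the sources used here. Values in all 8 files were whole numbers of at least 0, of which 7 files were tab-separated. Each file lists 138930 transcripts, of which 138884 were matched to GENCODE M21 (54835 genes). Counts of listed transcripts without a match in GENCODE M21 made up between 0.037% and 0.0468% of the deposited counts. The deposited counts came to between 56661356 and 120858975 per library.

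Transcripts of 1 gene mostly repeat the same reads, so the transcript with the largest total stood for its gene. In all 1109 cases with at least 800 counts where a transcript lay within an intron of another gene's counted transcript, 688 of them on the opposite strand, the outer count was at least the inner one in every library. Counts thus cover introns and both strands, and reads of overlapping genes cannot be told apart. Levels per kilobase and the correction for length use the spliced length, which leaves introns out.

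Genes were filtered with filterByExpr, scaled by TMM and tested with edgeR 4.0.16 (quasi-likelihood, R 4.3.3) for KO against floxed over all 21919 genes left, with Benjamini-Hochberg adjustment and SE taken as the log2 fold change divided by the root of F. DESeq2 1.42.0 and limma-voom (limma 3.58.1) were alternatives. Each was tested on simulated data. Class means are over log2(CPM + 1), with a pseudocount of 1. The study's own rule, an absolute log2 fold change over 1.5 with adjusted p under 0.05, was met by 261 genes (1.19%) and by 0 of the 38 members. Values in every library are given for the 4 replication and 4 mitosis genes of largest absolute change (called genes first), the gene of highest CPM in each class, and called genes of the other lists, with the 2 largest changes named where a list had no call. Values of Bub1 were added after they had been seen. The members and lists were chosen with earlier results of these data known. Promoter windows came from RefSeq (GRCm38.p6). Not every call among the LT-HSC markers is reported here.

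Replicate numbers come from the library labels, and same-numbered libraries are from different mice. Deviations from the group means correlated at 0.375, 0.395 and 0.579 for numbers 3, 4 and 5, all over 0.1, so the numbers were taken to pair the libraries in a fit with the number as a block. Different numbers within 1 to 3 or within 4 and 5 correlated at 0.346 to 0.603, and across these ranges at -0.589 to -0.340. Same-numbered libraries were thus no closer than others of the same range, so these correlations do not show pairing by number. The labels give no sequencing batch. The p-values measure the spread between libraries of different mice. In the main fit this spread also holds the difference between numbers 1 to 3 and numbers 4 and 5. In the fits within 1 of these ranges it holds only the spread within that range.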

Additional observations from a re-analysis of the deposited data

Results flagged for a closer look

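In 84 groups of 4 libraries (38 genes, the class means and their difference, and Ociad1, in each genotype), 3 values lay further from the rest of their group than Dixon's 95% critical value, where 4.2 are given by chance at 1 in 20 groups. Floxed replicate 3 was far above the other floxed libraries in Mcm3, at 7.09 against 6.59 to 6.66 on the log2(CPM + 1) scale, and in Cdk1, at 6.52 against 5.85 to 5.96. KO replicate 2 was far above the other KO libraries in Kif20a, at 6.38 against 6.10 to 6.15. Leaving out floxed replicate 3 took the log2 fold change of Mcm3 from 0.46 (adjusted p = 0.129) to 0.60 (adjusted p = 0.00504, edgeR) and that of Cdk1 from 0.59 (adjusted p = 0.121) to 0.79 (adjusted p = 0.0063).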

How the results depend on the processing

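The number of members called depends on floxed replicate 3 and on how library numbers are handled, and the cause was not tested. Of 14 replication genes (0 called), leaving out 1 library gave 0 to 11, the highest without floxed replicate 3. DESeq2 called 2 (11.2% of all genes), the sum over transcripts 1 (2.79%), a term for numbers 4 and 5 against the rest 6 (18.6%), the GC and length correction 1 (4.31%), that correction without floxed replicate 3 13 (25.7%), and numbers 4 and 5 alone 13 (32.8%). Of 24 mitosis genes (2 called), leaving out 1 library gave 0 to 8, again highest without floxed replicate 3. The share of all genes called was 17.6% without floxed replicate 3 and 0.259% to 1.17% without another library. Scaling by total gene count only gave 0 (4.14%) and DESeq2 5. Leaving out overlapping genes left 18 mitosis genes, without Ube2c, and called 1 of them (4.15%). The term for numbers 4 and 5 gave 8, the GC and length correction 1, and that correction without floxed replicate 3 15. Numbers 3 to 5 without a block gave 0 (0.111%), numbers 4 and 5 alone 13, and numbers 1 to 3 alone 0 (0.00854%). Of 128 genes of the other lists (2 called), these counts were 1 to 49 without 1 library (highest without floxed replicate 3), 1 by total gene count, 16 by DESeq2, 1 by limma-voom (2.2%), 31 with the term for numbers 4 and 5, 74 with the correction and without floxed replicate 3, 1 in numbers 3 to 5 without a block, 73 in numbers 4 and 5 and 0 in numbers 1 to 3. The GC and length correction, numbers 3 to 5 without a block, and the fits within 4 and 5 or 1 to 3 were chosen after seeing the data.

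With the replicate number as a block (pairing of numbers 3, 4 and 5), 0 replication genes, 0 mitosis genes and 1 gene of the other lists (Pttg1) were called, and 48 genes in all (0.222%). The same libraries without the block also called 0 members. Ociad1 kept its call under the block (-1.56, adjusted p = 0.0288) but not in numbers 3 to 5 without it (-1.59, adjusted p = 0.218) or in numbers 1 to 3 (-1.62, adjusted p = 0.155). It ranged from -1.75 to -1.29 without 1 library, and was not called without floxed replicate 1, KO replicate 2, KO replicate 4 or KO replicate 5.

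Mitosis minus replication was -0.23 with the correction and between -0.34 and -0.28 under every other alternative run. All 14 replication genes kept a positive log2 fold change under every alternative run (47 of 347 values became called, 300 kept their side of the threshold). For mitosis genes 54 of 594 values changed sign, all among 15 of the 24 genes. By total gene count, Top2a was -0.04, Ccnb1 -0.09, Aurkb -0.01, Bub1b -0.11, Kif11 -0.12, Kif20a -0.07, Nusap1 -0.06 and Ndc80 -0.14. With the correction, Mki67 was 0.21, Cenpe 0.23, Cenpf 0.54 and Kif23 0.02, and without floxed replicate 3 as well, Mki67 0.56, Bub1 0.10, Cenpe 0.47, Cenpf 0.85, Kif23 0.20, Ttk 0.30 and Hmmr 0.22. In numbers 4 and 5, Mki67 was 0.43, Cenpe 0.24, Cenpf 0.74 and Kif23 0.07, and in numbers 1 to 3, Kif11 -0.04 and Ndc80 -0.02. By limma-voom, Mki67 was 0.03 and Cenpf 0.25. Cenpf, at -0.00 with all libraries, was 0.02, 0.07 and 0.03 without KO replicates 2, 4 and 5, 0.02 with RLE factors, 0.07 with every gene with a count, 0.02 with at least 1 CPM in 4 libraries, 0.02 by DESeq2, 0.03 by the sum over transcripts, 0.00 without haemoglobin genes, 0.06 without overlapping genes, 0.24 with the replicate block and 0.15 with the term for numbers 4 and 5. Leaving out 1 library, the genes with a changed sign ranged as follows. Mki67 lay between -0.37 and 0.38, Cenpf between -0.20 and 0.60, Bub1b between -0.03 and 0.21, Ccnb1 between -0.02 and 0.39, Cenpe between -0.40 and 0.23, Kif11 between -0.05 and 0.33, Kif23 between -0.24 and 0.12, Nusap1 between -0.02 and 0.42, Ttk between -0.58 and 0.23, Ndc80 between -0.13 and 0.41, and Hmmr between -0.44 and 0.07. Depth was high for every member. The SE of each value follows the spread between libraries. Over the members this was a median SD of 0.448 in floxed mice with and 0.249 without replicate 3.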
